A study of Mus musculus with 2 samples.

Results

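The circadian clock genes described here are Arntl, Clock, Per1, Per2, Per3, Cry1, Cry2, Dbp, Nr1d1 and Nr1d2, taken as every non-control probe whose gene name in the scanner tables is one of these 10. They are 10 of 23602 named genes and account for 12 of 39429 probes, with 2 probes each for Cry2 and Dbp and 1 for each other gene. RNA came from mouse primary hepatocytes, the parenchymal cells of the liver isolated for culture, 24 hours after transfection with siRNA. One array held RNA from cells given 50 pmol of G0s2 siRNA and 1 held RNA from cells given 50 pmol of control siRNA. Both cultures were kept in medium with 10% serum and received the same lipid transfection reagent. The series addressed the effect of knocking down G0s2, which encodes an inhibitor of the triglyceride lipase ATGL. The strain, sex and age of the animals, the number of animals or wells behind each RNA, and the clock time of isolation, transfection and RNA extraction are not given in the sources used here. With 1 time point and 1 array per group, a shift in the phase of a rhythm and a change in its mean level cannot be told apart.

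The mammalian clock is a transcriptional feedback loop that runs in nearly every cell, hepatocytes included. CLOCK and BMAL1, the product of Arntl, bind E-box sequences as a pair and activate the Per, Cry, Nr1d1, Nr1d2 and Dbp genes. The PER and CRY proteins then inhibit CLOCK and BMAL1, while the nuclear receptors REV-ERB alpha and REV-ERB beta, encoded by Nr1d1 and Nr1d2, repress Arntl. DBP activates genes through D-box sequences and carries the rhythm to many liver genes. Serum, glucocorticoids and cyclic AMP are known to induce Per1 quickly and to reset the clock of cultured cells.

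Promoter sequences of the loop are shown because the products of these genes act on each other's promoters. Of the 10 genes, 9 had an entry in the RefSeq promoter table of build GRCm38.p6, and the entry not matched was Per2. The 250 bases before the most upstream start of each gene were searched on both strands. The E-box CACGTG, which reads the same on both strands, was present in 2 of 9 clock genes, Cry1 and Per1, and in 6.04% of 27025 genes in the table. The variant CACGTT, which reads AACGTG on the other strand, was present in Cry1, Cry2 and Nr1d1 and in 3.93% of all genes. The D-box TTATGTAA, TTACATAA on the other strand, was present at 2 places in Per3 and in 0.862% of all genes. The nuclear receptor motif AGGTCA, which reads TGACCT on the other strand, was present in Nr1d2 and Per1 and in 13.8% of all genes. No match of 1 motif overlapped a match of another. In the windows that follow, written 5′ to 3′ on the gene's strand, capitals mark the match. A match describes letters and not a bound site.
Cry1, E-box, chr10:85185082-85185141, minus strand: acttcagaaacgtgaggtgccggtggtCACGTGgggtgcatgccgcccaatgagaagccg
Per1, E-box, chr11:69098756-69098815, plus strand: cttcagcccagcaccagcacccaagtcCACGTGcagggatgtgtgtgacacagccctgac
Nr1d1, E-box variant, chr11:98775378-98775432, minus strand: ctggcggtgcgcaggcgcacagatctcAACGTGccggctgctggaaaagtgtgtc
Cry2, E-box variant, chr2:92434203-92434262, minus strand: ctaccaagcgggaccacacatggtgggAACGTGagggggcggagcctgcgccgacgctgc
Per3, D-box, chr4:151044789-151044850, minus strand: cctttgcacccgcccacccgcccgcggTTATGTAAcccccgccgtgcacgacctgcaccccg

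A signal is the spot's background-subtracted brightness in linear units, and a level is its log2 relative to the 75th percentile of that array's signals, which was 728 on the G0s2 siRNA array and 418 on the control siRNA array. A difference is the G0s2 siRNA level minus the control siRNA level. Each is given with the scanner's own signal error carried to the log2 scale, which does not cover cultures. For bright probes this error was nearly constant, with a median of 0.20 over genes well above background on both arrays. For such probes, 2 times the scanner error was thus close to a fixed cutoff and not a precision of each probe. No p-value can be had from 1 array per group, so each comparison is between these 2 arrays. G0s2 itself had a signal of 102.6 on the G0s2 siRNA array and 383.1 on the control siRNA array, a difference of -2.70 ± 0.21. Of 15419 genes measured, 10.3% differed by at least 2-fold in either direction, 46.8% of them higher with G0s2 siRNA (99.6% with spike-in centring), and the median difference over all 15419 was -0.06. All 7 hepatocyte markers listed were well above background on both arrays, with a log2 summed level of 10.2 with G0s2 siRNA and 9.95 with control siRNA. That sum is carried by the brightest probes, and the 7 markers had a median difference of 0.44, with Cps1 at 2.96 and Hnf4a at 1.04 past 2-fold. The same sum over Kupffer cell markers, 5 of 6 measured, was 1.78 with G0s2 siRNA and 1.84 with control siRNA, while 3 of 5 were higher and the median difference was 0.14. For endothelial markers, 5 of 5 measured, it was 2.77 with G0s2 siRNA and 3.22 with control siRNA, while 3 of 5 were higher and the median difference was 0.77. Kdr, the brightest of these, differed by -0.51 on that probe and by 1.27 on its other one. For cholangiocyte markers, 3 of 4 measured, it was 0.77 with G0s2 siRNA and 1.85 with control siRNA, and 3 of 3 were lower. Only 1 of 5 stellate and 1 of 4 lymphocyte markers was measured, Col1a1 at -0.10 and Cd3e at -1.01, and Lrat, Des, Pdgfrb and Ptprc were not well above background on either array. The part of other cell types in the clock gene values was not tested, and in bulk RNA fewer cells of a type and less RNA per cell cannot be told apart.

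Of the 7 repressor genes of the clock, Per2, Nr1d2, Cry2 and Nr1d1 were higher with G0s2 siRNA by more than 2 times the scanner error. Under normexp, a model-based background correction, Per2 was at 0.15 and Nr1d1 at 0.19, each less than its scanner error in the main setting. Per1 differed by less than its error, Cry1 gave only a bound and Per3 was not measured. The activators Arntl and Clock did not share a direction. Of the 10 genes, 9 were measured, meaning that a probe was well above background on at least 1 array, and 8 had a positive difference, against 45.0% of all genes measured. The 8 include Cry1, which was dim with control siRNA and counts through its bound. On probes well above background on both arrays, 7 of 8 were positive. Under normexp, quantile normalization and the authors' series table, 7 of 9 were positive. On the brightest probe of each, 0 of 9 differed by at least 2-fold, against 4.81% of all genes higher and 5.46% lower by that much. The median difference of the 9 was 0.35, and the range was -0.37 for Arntl to 0.92 for Per2. At 1.5-fold, 2 of 9 genes were past the threshold, Per2 and Nr1d2, both higher, against 27.0% of all genes in either direction and 12.4% in the higher one. A difference of more than 2 times the scanner error was seen for 4 of 9 genes, Per2, Nr1d2, Cry2 and Nr1d1, all higher with G0s2 siRNA, against 35.9% of all genes in either direction and 16.1% in the higher one. The clock genes thus leaned to the higher side with small differences, and with 9 genes chosen with earlier results known, whether they stand apart from other genes was not tested.

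**Figure D1:**
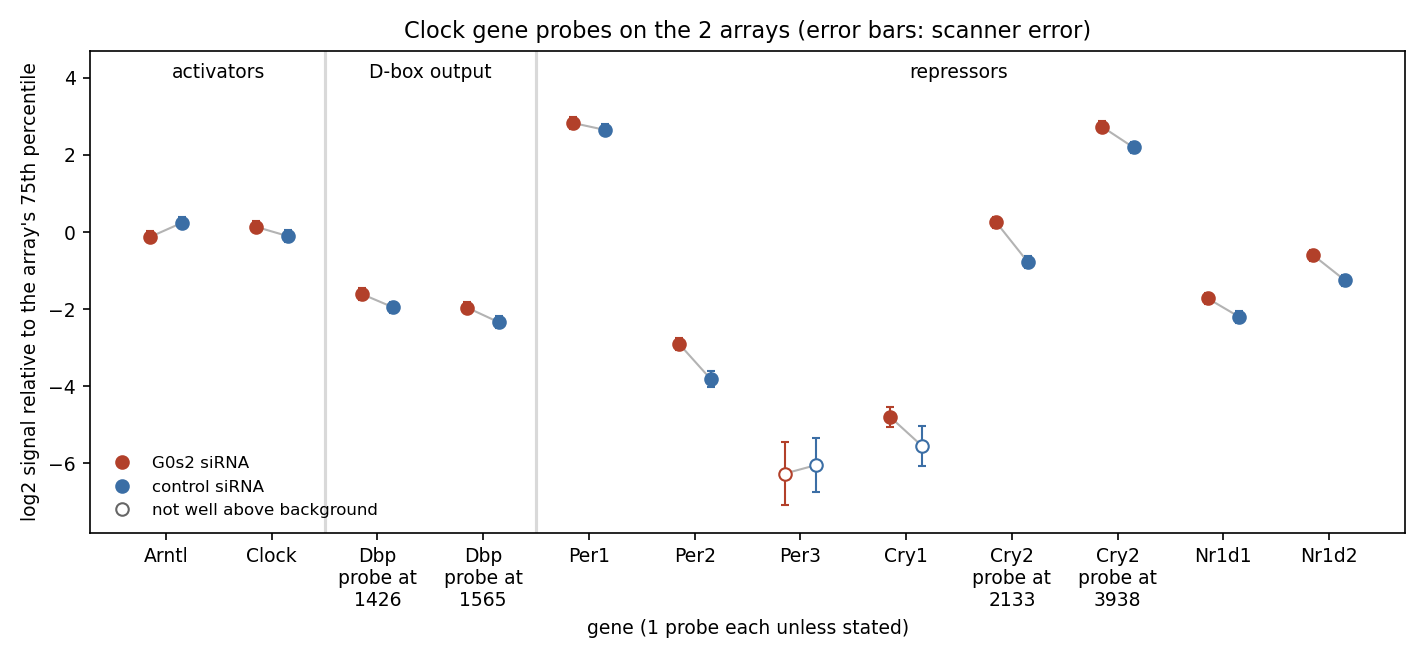
Levels of the 12 clock gene probes, as log2 signal relative to the array's 75th percentile (vertical axis), with the G0s2 siRNA array left and the control siRNA array right in each pair; bars are the scanner error and open points were not well above background. Arntl was lower with G0s2 siRNA (-0.13 against 0.24) and Per2 was higher (-2.89 against -3.81); heights of different probes cannot be compared with each other.

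Arntl, which encodes BMAL1, was the only measured clock gene with a lower level on the G0s2 siRNA array. Its signal was 666.3 with G0s2 siRNA and 493.4 with control siRNA, which at each array's scale is a level of -0.13 against 0.24. The difference was -0.37 ± 0.20, or 1.29-fold lower, and 25.3% of all genes had a difference at or below it. This is under 2 times the scanner error, at 1.79 times. With the arrays centred on their spike-in controls, which moves the median of all genes to 1.37, Arntl was at 1.06 and so still below that median. With each array centred on the median of its own probes well above background, which moves the median of all genes to 0.29, Arntl was at -0.02. The probe, A_55_P2408588 for NM_007489, maps to the plus strand of chromosome 7 in mm9, positions 120457261 to 120457320. Clock encodes the partner of BMAL1, and its signal was 799.3 with G0s2 siRNA and 388.9 with control siRNA. Its level was 0.14 against -0.11, a difference of 0.24 ± 0.20. Clock was thus above its control value by about the scanner error, and the 2 members of the activator pair differed in sign.

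Per1 and Per2 encode the PER proteins that carry the inhibitory complex, and their differences were both positive but of unlike size. Per1 was bright on both arrays, with a signal of 5161 with G0s2 siRNA and 2622 with control siRNA, levels of 2.83 and 2.65. Its difference of 0.18 ± 0.20 was smaller than the scanner error. Per2 had a signal of 97.9 with G0s2 siRNA and 29.8 with control siRNA, levels of -2.89 and -3.81. Its difference of 0.92 ± 0.26, or 1.89-fold higher, was the largest of the measured genes on their brightest probe and lay above that of 94.1% of all genes. Under normexp, a model-based background correction, the Per2 difference was 0.15. Per3 was not well above background on either array, with signals of 9.46 with G0s2 siRNA and 6.35 with control siRNA, and no fold is given for it.

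Cry1 and Cry2 encode the cryptochromes, the strongest direct inhibitors of CLOCK and BMAL1 in the loop. Cry1 cleared background with G0s2 siRNA but not with control siRNA, with a signal of 26.1 with G0s2 siRNA and 8.94 with control siRNA. Set against the lowest signal well above background on the control siRNA array, Cry1 was at least 1.05-fold higher with G0s2 siRNA, a bound that says little about its size. The bound turned below 0 under normexp (-0.31), quantile normalization (-0.02) and the authors' series table (-0.03).

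Cry2 was read by 2 probes, which lie 7610 bases apart on the minus strand of chromosome 2 in mm9. The brighter one, A_55_P2016540 for transcript variant 1 (NM_009963, 92243807 to 92243866), had a signal of 4842 with G0s2 siRNA and 1911 with control siRNA. Its levels of 2.73 and 2.19 gave a difference of 0.54 ± 0.20, or 1.46-fold. The other, A_55_P1953708 for transcript variant 2 (NM_001113333, 92251417 to 92251476), had a signal of 869.3 with G0s2 siRNA and 244.0 with control siRNA. Its levels of 0.26 and -0.78 gave a difference of 1.03 ± 0.20, or 2.05-fold, and it was the only clock gene probe past 2-fold. Both probes were higher with G0s2 siRNA, and the variant 2 probe exceeded the variant 1 probe by 0.49 ± 0.29, which is 1.70 times the error of that gap. The accession of variant 2 found no match in the RefSeq table used here, and the probe keeps the gene name of the scanner table. Under normexp the variant 2 difference was 0.98, so its call at 2-fold was at the border. The first 30 of the 60 bases of the probes for Cry2, Per2 and Arntl, 5′ to 3′, show what was measured, and none of the 12 clock gene probes shared 20 bases in a row with any other probe on the array.
Cry2, variant 1 probe: tctcccacagtttgtttgtgaatatttacc
Cry2, variant 2 probe: tcctcctgagtgctggaaattcagatacga
Per2 probe: acctttcacagtgatcaggtagtagccatg
Arntl probe: gagccattgatacaagtcaatctaccatgt

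The REV-ERB genes were both higher with G0s2 siRNA. Nr1d1 had a signal of 221.0 with G0s2 siRNA and 90.9 with control siRNA, levels of -1.72 and -2.20, and a difference of 0.48 ± 0.21. Nr1d2 had a signal of 479.0 with G0s2 siRNA and 175.5 with control siRNA, levels of -0.60 and -1.25, and a difference of 0.65 ± 0.21. The Nr1d2 difference, 1.57-fold, was over 3 times its scanner error, at 3.16, and that of Nr1d1, 1.40-fold, was 2.28 times its error. Under normexp the Nr1d1 difference was 0.19 and that of Nr1d2 was 0.63. Nr1d1 overlaps the thyroid hormone receptor gene Thra at its end on the opposite strand. Thra differed by -0.70 ± 0.20, opposite in sign to Nr1d1. The Nr1d1 probe, A_51_P223776, maps to positions 98630526 to 98631028 of chromosome 11 in mm9, a span of 503 bases for a probe of 60.

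Dbp, whose protein activates D-box genes and whose own transcription is a direct output of CLOCK and BMAL1, was read by 2 probes that gave nearly the same value. The probe at position 1426 of the transcript had a signal of 239.0 with G0s2 siRNA and 107.8 with control siRNA, a difference of 0.35 ± 0.21. The probe at position 1565 had a signal of 186.6 with G0s2 siRNA and 82.4 with control siRNA, a difference of 0.38 ± 0.21. The probes differed from each other by 0.03 ± 0.30. Neither difference reached 2 times its error, and both shrank under normexp, to 0.05 and 0.06. The gene Sphk2, which overlaps Dbp, differed by -0.06 ± 0.20.

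**Figure D2:**
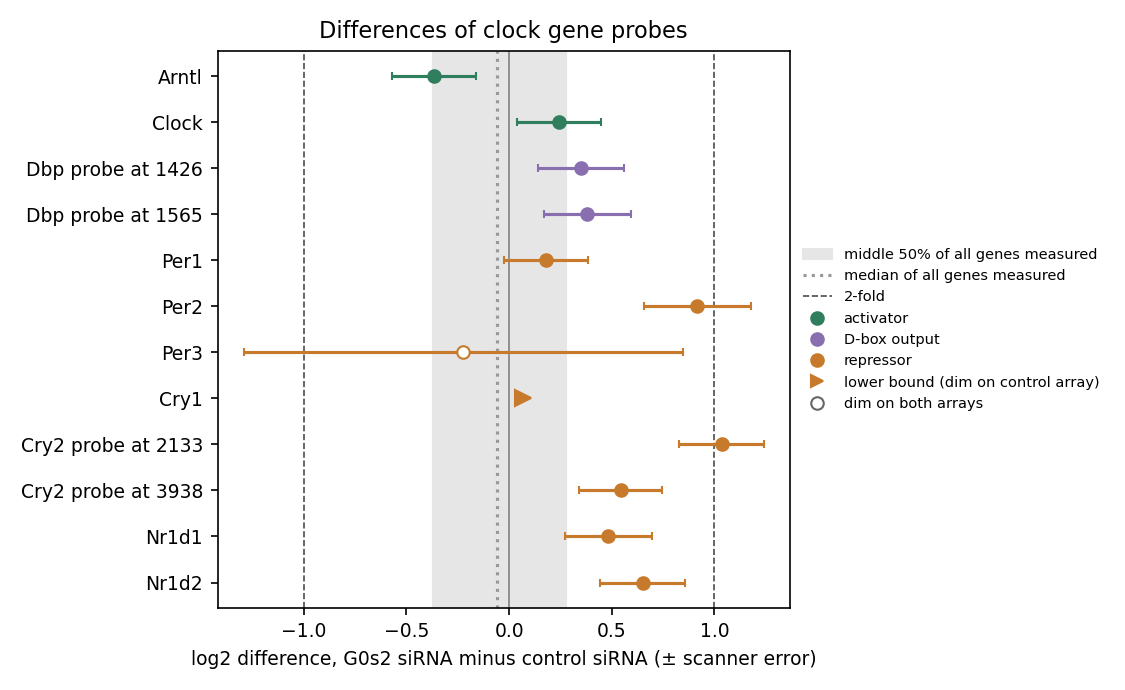
Log2 differences of the 12 clock gene probes, G0s2 siRNA minus control siRNA (horizontal axis), with the scanner error as bars, the middle 50% of all genes as a grey band and 2-fold as dashed lines. Repressor probes lie to the right of 0 apart from Per3, which was dim on both arrays, Arntl lies at -0.37, and the Cry2 probe at position 2133 alone is past 2-fold at 1.03.

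Activators and repressors were set against each other because a gap between genes of the same 2 arrays does not depend on where the arrays are centred. The activators Arntl and Clock had a median difference of -0.06, and the 6 measured repressors (Per1, Per2, Cry1 as its bound, Cry2, Nr1d1 and Nr1d2) had a median of 0.51. The gap was -0.57, with the activators lower relative to the repressors. All 8 probes of the repressors and Dbp that were well above background on both arrays had a higher difference than Arntl. Most genes on the array did too, since only 25.3% of all genes measured had a difference at or below that of Arntl. These gaps ran from 0.54 for Per1 to 1.40 for the Cry2 variant 2 probe, and 7 of 8 were over 2 times their scanner error. All were smaller under normexp, where Arntl was at -0.26, Per1 and Per2 at 0.15 and Nr1d1 at 0.19. There the Dbp probes were at 0.05 and 0.06, the Cry2 probes at 0.53 and 0.98 and Nr1d2 at 0.63. Errors of the gaps were not computed for that setting. All 8 gaps use the same Arntl probe, and Cry2 and Dbp enter with 2 probes each, so the gaps are not separate observations. How many of all genes lay above Arntl by more than 2 times the error was not counted. The gap between Arntl and Per2 was -1.28 ± 0.33, that between Arntl and Nr1d2 -1.02 ± 0.29, and that between Arntl and Nr1d1 -0.85 ± 0.29. Clock stood apart less, with 2 of 8 gaps over 2 times their error, those to Per2 at -0.68 ± 0.33 and to the Cry2 variant 2 probe at -0.79 ± 0.29. The gap to Per2 changed sign under normexp, with Clock at 0.28 and Per2 at 0.15. The contrast therefore rests on Arntl more than on Clock. Counting Dbp with the activators gave a gap of -0.27, and under normexp the gap was -0.16, with Cry1 in place of Arntl as the lowest gene. Whether 2 cultures given the same siRNA would differ as much was not tested.

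Ordered by difference on the brightest probe, the 8 genes well above background on both arrays ran from Arntl through Per1, Clock, Dbp, Nr1d1, Cry2 and Nr1d2 to Per2. The 7 gaps between neighbours in that order were between 0.06 and 0.54, and 0 of 7 exceeded 2 times their scanner error. The order of neighbours is therefore not settled at that error, while Arntl and Nr1d1, farther apart in it, differed by 2.88 times theirs. Under normexp these 2 genes were closer, with Arntl at -0.26 and Nr1d1 at 0.19. Clock and Per2 differed by 2.04 times their error, but under normexp Clock, at 0.28, was above Per2, at 0.15.

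**Figure D3:**
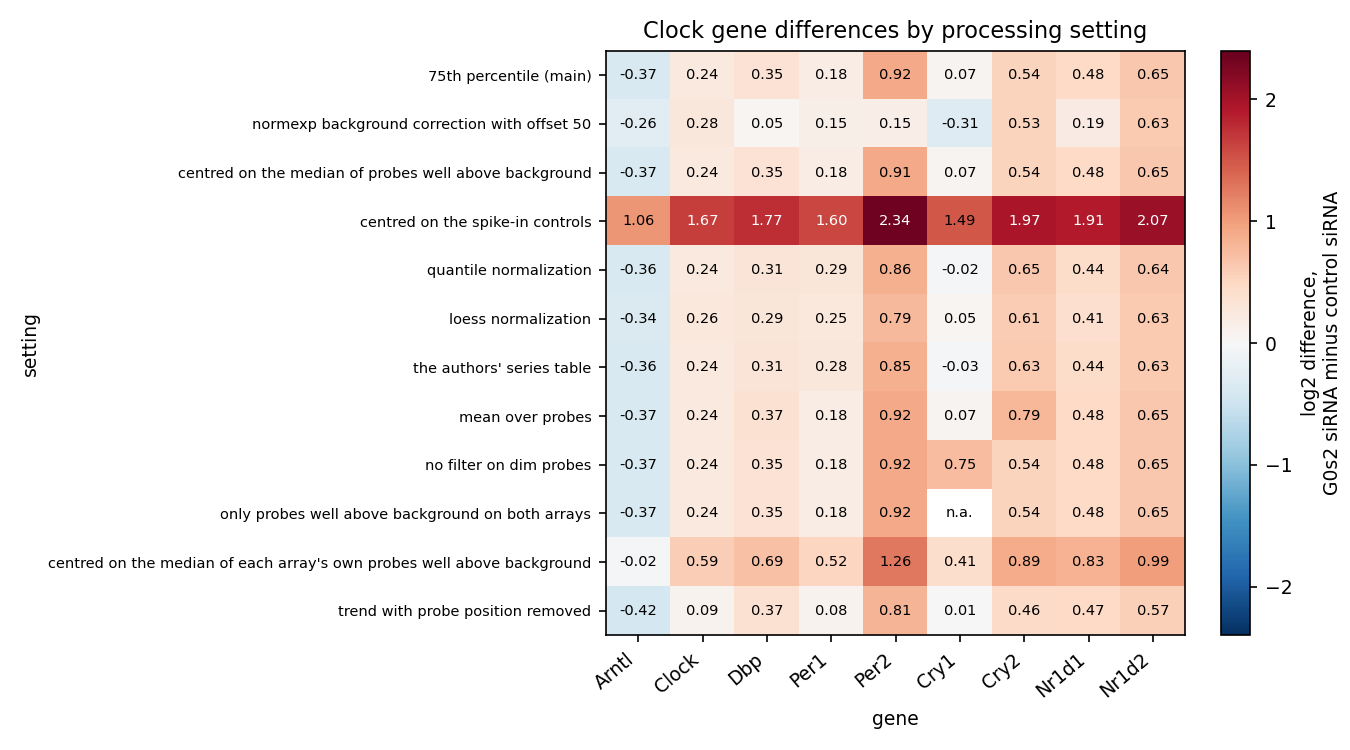
Log2 differences, G0s2 siRNA minus control siRNA, of each clock gene (columns) under each processing setting (rows), with the value in each cell and n.a. where the gene was not measured. Arntl is the lowest gene and Per2 the highest in each row shown except normexp, and centring on spike-in controls moves the values of all genes up, with Arntl at 1.06.

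Among 20 other genes of the clock, 18 were measured. With G0s2 siRNA 1 of these was past 2-fold on the higher side and 0 on the lower, against 4.81% and 5.46% of all genes. Their median difference was 0.28. The nuclear receptor genes Rora and Rorb, whose products activate Arntl at the sites where the REV-ERBs repress it, differed by 0.29 ± 0.20 for Rora and -0.68 ± 0.42 for Rorb. Arntl2, a paralog of Arntl, differed by -0.80 ± 0.20, although its other measured probe gave -0.19. Npas2, a paralog of Clock, was not well above background on either array.

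The D-box genes related to Dbp were Hlf at 0.61 ± 0.21 and Tef at 0.30 ± 0.20, both positive like Dbp. Nfil3, whose protein competes with them as a repressor, differed by -0.11 ± 0.20. Of the bHLH repressor genes that act on E-boxes, Bhlhe40 differed by 0.22 ± 0.20. Bhlhe41 was not well above background with control siRNA, at a signal of 13.8, and gave only a bound, at least 1.66-fold higher with G0s2 siRNA. Its other probe was dim on both arrays. Ciart differed by -0.14 ± 0.38. The kinase genes Csnk1d and Csnk1e, whose products phosphorylate PER proteins, differed by 0.39 ± 0.20 and 0.28 ± 0.20.

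Of 20 genes known as rhythmic outputs in liver, 18 were measured, of which 2 were past 2-fold on the higher side and 1 on the lower. The shares over all genes were 4.81% on the higher side and 5.46% on the lower. The median difference of the outputs was 0.30. The higher ones were Lpin1, which encodes a phosphatidate phosphatase, at 1.02 ± 0.21 and Insig2, a brake on SREBP processing, at 1.02 ± 0.20, with 1.57 on the other Insig2 probe. On the lower side was Nr0b2, which encodes the receptor SHP, by at least 2.04-fold, and it cleared background with control siRNA alone. The calls at 2-fold were borderline, since under normexp Lpin1 was at 0.94, Insig2 at 0.97 and Nr0b2 at -0.84. Below the threshold, Ppara differed by 0.94 ± 0.20 on its brightest probe and by 0.06 and 0.62 on its others. The cell cycle kinase gene Wee1, a direct target of CLOCK and BMAL1, differed by 0.92 ± 0.21 and Rgs16 by 0.92 ± 0.22. Cdkn1a differed by -0.88 ± 0.20.

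Of 11 genes through which serum, glucocorticoids or cyclic AMP reach the clock, all 11 were measured, of which 2 were past 2-fold on the higher side and 1 on the lower. Over all genes 10.3% were past 2-fold in either direction. The median difference of the 11 was 0.26. Fkbp5, a glucocorticoid target, differed by 1.09 ± 0.20, and Tsc22d3, another such target, by 0.46 ± 0.20. Nr3c1, which encodes the glucocorticoid receptor, differed by 0.46 ± 0.20 on its brightest probe and by -0.48 ± 0.21 on the other. Nr4a2, an immediate early nuclear receptor gene, differed by 1.79 ± 0.28, but by 0.52 under normexp. The other Nr4a2 probe was dim with control siRNA and gave only a bound, at least 1.26-fold higher with G0s2 siRNA. Sik1, a kinase gene induced by cyclic AMP, differed by -1.36 ± 0.21 (0.062 with spike-in centring) and the cyclic AMP target Crem by -0.34 ± 0.20. Among the immediate early genes, Egr1 differed by -0.65 ± 0.20, Nr4a1 by -0.41 ± 0.20 and Fos by 0.37 ± 0.21. The genes of this list thus had no common direction, with 6 positive and 5 negative.

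**Figure D4:**
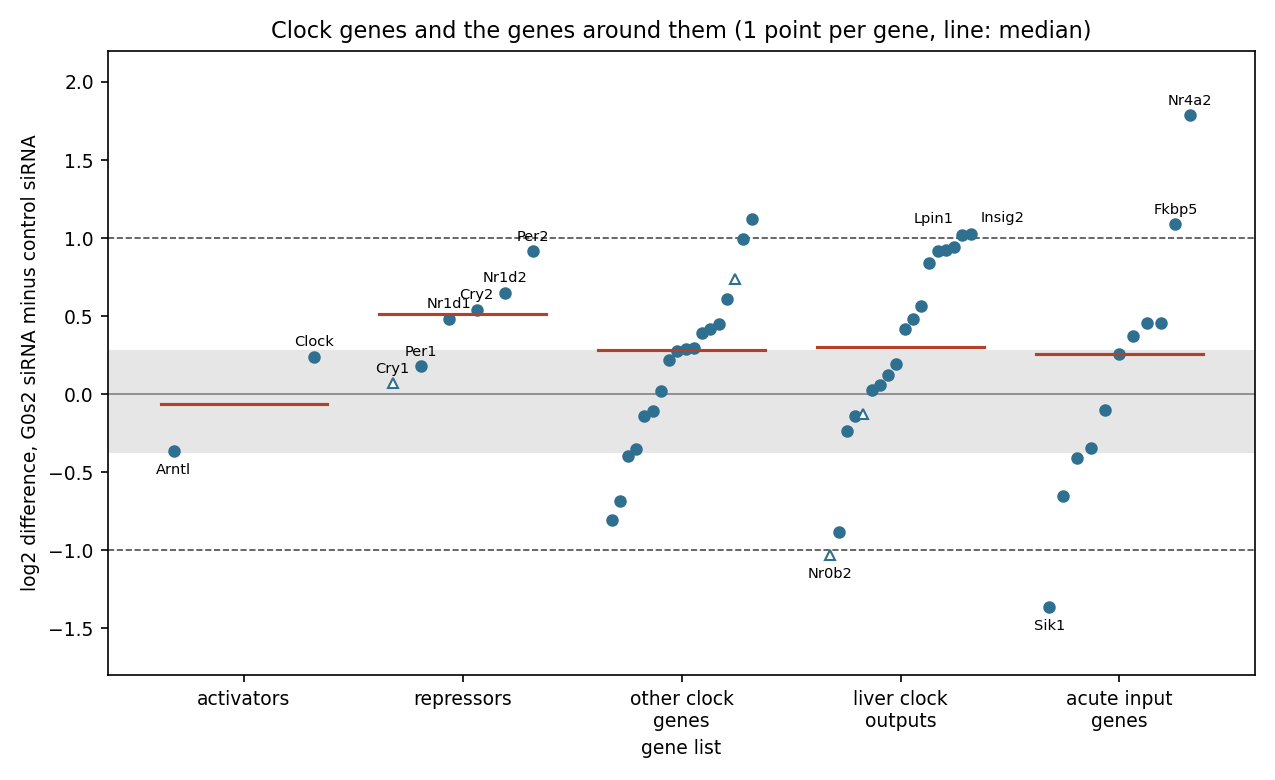
Log2 differences, G0s2 siRNA minus control siRNA (vertical axis), with 1 point per gene in 5 gene lists (horizontal axis), medians as lines, the middle 50% of all genes as a grey band and 2-fold as dashed lines; open triangles had 1 array not well above background. Medians are -0.06 for activators, 0.51 for repressors, 0.28 for other clock genes, 0.30 for liver outputs and 0.26 for acute input genes.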

How the data were processed

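The deposited scanner tables hold spot intensity values from Agilent Feature Extraction 10.7.1.1, a 1-colour design with probe positions on mm9, per the file headers. The authors' series table also holds intensity values, brought to a common distribution by a method not given in the sources used here, and served only as an alternative. Per the file headers both arrays shared a slide and a scan start, so array position and group cannot be told apart.

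The processed signals of the deposited tables were used. Outlier and control spots were left out, spots of a probe were averaged, log2 was taken and each array's 75th percentile subtracted. Probes were named through a RefSeq table of GRCm38.p6, and 8428 of 39424 probes kept found no symbol there. A gene's value is that of its brightest probe among those well above background with either siRNA (15419 genes). Where 1 array was dim, its value was the higher of its own and that array's lowest signal well above background, which gives a bound. With 1 array per group nothing was tested, and the number of arrays limits the precision. For 223 probes with at least 8 usable spots of 10, the difference had a median SD between spots of 0.07. The median scanner error of a difference was 0.20, so that error is not the measured scatter of spots.

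The clock genes, the other lists and the rules were chosen with earlier results of these data known. By rule the text names G0s2, all 10 clock genes and, of each other list, the genes past 2-fold and up to 4 others with the largest difference. Further genes of these lists, and the overlapping genes Thra and Sphk2, were named for their roles or positions after their values were seen. Some genes of the lists count in the totals and are not reported here by name. The procedure was tested on simulated arrays. In these no probe was dim on 1 array alone, so the bounds were not covered by that test. Python 3.11.15, pandas 2.3.3, numpy 2.4.6, scipy 1.17.1, statsmodels 0.14.6, R 4.3.3 and limma 3.58.1 were used.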

Additional observations from a re-analysis of the deposited data

How the results depend on the processing

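The number of clock genes at least 2-fold different was 0 of 9, and it was 9 with centring on spike-in controls, 2 at 1.5-fold, 4 at more than 2 times the scanner error, 1 with each gene's most different probe and 1 with each array centred on the median of its own probes well above background (Per2, at 1.26). The most-different-probe setting and the own-median centring were chosen after seeing the data. The median difference of 0.35 was 1.77 with spike-in centring and 0.69 with the own-median centring. Both shift all genes, whose median was 1.37 and 0.29 under them against -0.06. Relative to that median the clock genes were 0.31 to 0.57 higher under all 14 settings tried on the whole array, the main one included. Re-centring alone could not change this distance. Genes higher with G0s2 siRNA were 46.8% of those past 2-fold, 99.6% with spike-in centring and 81.5% with the own-median centring. The gap of activators to repressors, -0.57, was -0.16 under normexp and -0.27 with Dbp among the activators. It was negative in all 14 settings, the main one included. Settings that only re-centre the arrays could not change this gap, so their agreement adds nothing. Single genes changed sign under spike-in centring, with Arntl at 1.06, Sik1 at 0.062 and Nr0b2 at 0.39. Of 116 values of single clock genes under alternatives, 94 moved by less than their scanner error. Many of these could not move, so the count is no measure of stability. The filter settings leave genes bright on both arrays as they were, and averaging over probes leaves genes with 1 probe as they were. Leaving out saturated spots changed nothing, since there were 0. Without Cry1 the median was 0.42 and the gap -0.60. No paired analysis was possible because each group has 1 array, and for the same reason no array could be left out. Signals near background limit Per2, Per3 and Cry1.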

Other observations

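Several genes next to the clock were read by probes that did not give the same sign. Csnk1e differed by 0.28 ± 0.20 on its brightest probe and by -0.31 ± 0.20 on its other one. The cell cycle inhibitor gene Cdkn1a differed by -0.88 ± 0.20 and -0.61 ± 0.21 on 2 probes and by 1.45 ± 0.29 on another. Btrc, which encodes a ubiquitin ligase subunit acting on PER proteins, differed by -0.35 ± 0.27 and on its other probe was at least 1.44-fold higher. By contrast, Cry2, Dbp, Insig2, Alas1 and Nono each had the same sign on both measured probes, with Alas1 at 0.56 and 0.44 and Nono at -0.40 and -0.50. These genes were picked for their probes after the values were seen.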
